A study of Mus musculus with 2 samples.

Results

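Mature oligodendrocytes of the adult mouse arcuate nucleus and median eminence were selected from single-cell RNA profiles as cells with a unique molecular identifier (UMI) of at least 3 of the 8 genes Mog, Mag, Mobp, Cldn11, Opalin, Ermn, Gjb1 and Mal, and of at most 1 of the 4 precursor genes Pdgfra, Cspg4, C1ql1 and Matn4. This rule gave 408 of 3889 used cells, of which 131 of 1484 came from the Irx3/5dHet library and 277 of 2405 from the WT library. The Irx3/5dHet library pooled tissue of 5 CD-1 mice with genotype Irx3/5+/-, heterozygous for the transcription factor genes Irx3 and Irx5, and the WT library pooled tissue of 7 wild-type CD-1 mice. All mice were 7 to 8 weeks old, no treatment was given, and both genotypes went through dissociation, sorting of live cells and Drop-seq, a droplet method in which barcoded beads catch the 3′ ends of each cell's transcripts. The dissected tissue joins the arcuate nucleus, a hypothalamic centre of energy balance, with the median eminence, where axons release hormones into portal blood. There was 1 pooled library per genotype and no map from cells to mice, so no difference below has a replicate check, no test was possible, and every interval covers counting error only. The series title concerns Irx3 and Irx5 in postnatal neurogenesis and leptin sensitivity.

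Oligodendrocytes are the myelin-forming glia of the central nervous system. They arise from dividing precursors, pass through a short premyelinating stage, and then make large amounts of a small set of proteins and lipids. These are wrapped around axons as compact membrane. Mature cells also take up potassium through glial gap junctions and channels, pass energy metabolites to axons, and make their own cholesterol. In mouse single-cell atlases they fall into subsets, one of which has been marked by Klk6 and Hopx and another by Ptgds.

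The rule set the members apart from the other cells with few cells in between. In the Irx3/5dHet library 5 cells had exactly 3 markers, 43 had 7 and 37 had 8, and in the WT library 12 cells had exactly 3, 101 had 7 and 67 had 8. Just outside the rule, 19 Irx3/5dHet and 37 WT cells had 2 markers and at most 1 precursor gene. The level of Mbp, myelin basic protein, which is outside the rule, was 9406 CPM (a gene's UMIs scaled by the summed UMIs of the cells concerned) in the Irx3/5dHet cells with 3 markers and 108 CPM in those with 2. In WT it was 2190 CPM in the cells with 3 markers and 134 CPM in those with 2. Another Irx3/5dHet cell, with 7 markers, was left out because it held at least 2 of the precursor genes. Mbp, which the rule did not use, was read in 131 of 131 Irx3/5dHet and 273 of 277 WT members. Pdgfra, the growth factor receptor of precursors and one of the rule's genes, had 1 UMI over all members of each library.

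**Figure D1:**
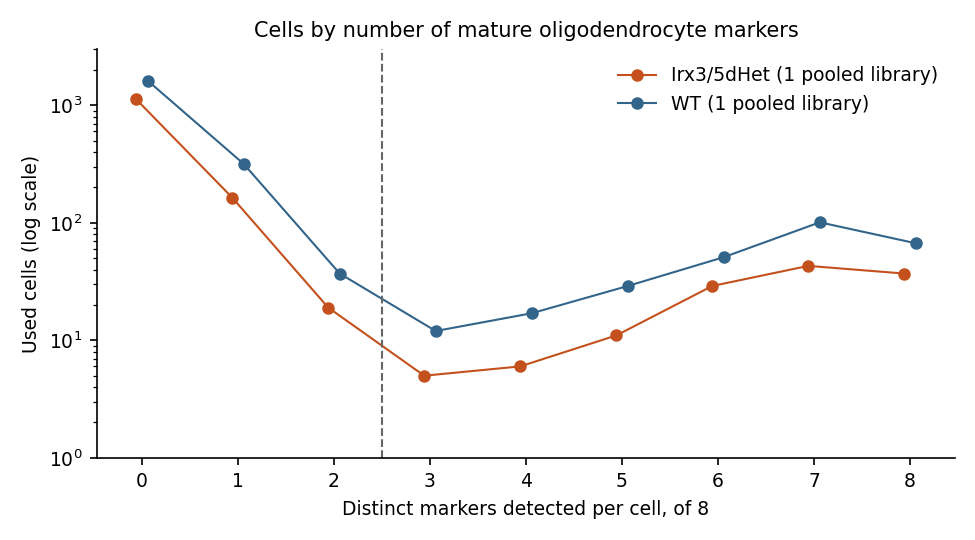
Used cells with at most 1 precursor gene (vertical axis, log scale) by the number of distinct markers detected of 8 (horizontal axis) in the Irx3/5dHet and WT libraries, with the dashed line at the limit of the rule. Both libraries have few cells at 3 markers (5 and 12) and a second maximum at 7 markers (43 and 101), and all cells right of the line are members.

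The libraries held 2974060 UMIs in all for Irx3/5dHet and 4426817 for WT. Members held 188705 UMIs in the Irx3/5dHet library (median 1153 UMIs and 680 genes per cell) and 509533 UMIs in the WT library (median 1358 UMIs and 794 genes per cell). Pseudogene rows took 3.99% of member UMIs in the Irx3/5dHet library and 6.92% in the WT library, and the median log2 ratio of the 833 pseudogenes with at least 10 UMIs was -0.99 in members and -0.76 in all other cells. Genes with near-identical pseudogene copies are therefore uncertain, and how reads with several matches were counted is not given in the sources. The libraries shared 3 barcode sequences, carried by 2 members. At least 2 of the markers of 1 other cell type were found in 30 of 131 Irx3/5dHet and 45 of 277 WT members, mostly neuron markers (26 and 41 members), and these cells had a median of 1706 and 2654 UMIs. Summed over 10 neuron markers, all of them detected, the level was 911 CPM in Irx3/5dHet and 1160 CPM in WT members. Over 5 fibroblast markers it was 498 CPM in Irx3/5dHet members, with all 5 detected, and 39.3 CPM in WT members, with 4 detected.

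The members formed a smaller share of the Irx3/5dHet library than of the WT library, and the shares lay closer together once the cells with at least 3 neuron markers were left out. Of all used cells, 8.83% (exact Clopper-Pearson 95% interval 7.43 to 10.4) of the Irx3/5dHet and 11.5% (10.3 to 12.9) of the WT library were members, a ratio of 0.766 (0.618 to 0.947). The denominators differed: 718 of 1484 Irx3/5dHet cells and 885 of 2405 WT cells had at least 3 of the neuron markers and were neither members nor precursors. With these neuron marker cells left out, members were 17.1% (14.5 to 19.96) of 766 Irx3/5dHet cells and 18.2% (16.3 to 20.3) of 1520 WT cells, and the ratio was 0.938 (0.756 to 1.16). Oligodendrocyte precursors, taken as cells with at least 2 of the 4 precursor genes and under 3 of the markers, were 44 in the Irx3/5dHet and 153 in the WT library. That is 2.98 members per precursor in the Irx3/5dHet library and 1.81 in the WT library. Because each share depends on how many other cells were captured, and each library was captured once, the capture of cells and their number in the tissue cannot be told apart.

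Irx3 and Irx5 themselves were hardly read in these cells. Irx3 had 0 UMIs in the 131 Irx3/5dHet members and 0 in the 277 WT members, and Irx5 had 0 UMIs in Irx3/5dHet and 1 UMI in WT members. A count of 0, taken as a limit of 3 counts of the total, allows a share of up to 2.29% of Irx3/5dHet members and up to 1.08% of WT members with a UMI. Because only transcript ends were read and the sources used here do not say where the alleles are disrupted, these counts check neither label.

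Genes outside the rule that stood highest in members over all other cells included Mbp, the galactolipid enzymes Fa2h and Ugt8a, and the transcription factor Nkx6-2. Of 2299 genes with at least 50 UMIs in members, 135 (5.87%) were at least 10-fold higher in members than in the other cells of both libraries, a description that follows from how the cells were picked. Among the 20 with the largest lower ratio were Car2, Galnt6, Gm21984, C030029H02Rik, Tnfaip6, Nkx6-2, Tmem125, Tmem88b, Car14, Hapln2, Trf, Mbp, Fa2h, Ptgds, Ugt8a, Anln, Nipal4 and Npsr1, whose ratio in the library where it was lower was between 58.2 and 170.5. Mbp stood at 9316 CPM in Irx3/5dHet members against 86.0 CPM in the other Irx3/5dHet cells, and at 8082 CPM in WT members against 95.9 CPM in the other WT cells. Its share of a member's UMIs had a median of 0.892% in Irx3/5dHet members (lowest 0.0476%, highest 2.10%) and 0.791% in WT members (lowest 0%, highest 3.96%), with no Mbp UMI in 0 and 4 members. Ptgds, which makes prostaglandin D2 and binds lipids, varied more, with a median of 1.60% in Irx3/5dHet members (0% to 6.64%) and 1.01% in WT members (0% to 7.31%). Gm21984, on chromosome 7 from 126942144 to 126952873 in GRCm38, overlaps Kctd13, Asphd1 and Sez6l2 in GENCODE M21, so its reads may belong to them. Against oligodendrocyte precursors alone, 18 of the 20 were at least 10-fold higher in both libraries. The 20 were picked over other cells that include these precursors, so this count is a description. The share of all genes that were 10-fold higher than in precursors is not given here.

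The 8 markers of the rule were all a little higher in Irx3/5dHet members, with a median log2 ratio of 0.28 and a range from 0.02 (Mog) to 0.54 (Mal). Mal, a raft protein that sorts cargo to myelin, had 6380 CPM in Irx3/5dHet members and 4402 CPM in WT members. Cldn11, the tight junction protein of myelin, had 6412 CPM in Irx3/5dHet members and 5069 CPM in WT members, a log2 ratio of 0.34 (0.24 to 0.44). Opalin, a membrane glycoprotein of oligodendrocytes, had 1229 CPM in Irx3/5dHet members and 873 CPM in WT members, a log2 ratio of 0.49 (0.26 to 0.73). Mag, an adhesion molecule of the innermost myelin layer, had 5214 CPM in Irx3/5dHet members and 4636 CPM in WT members. Mog, on the outer myelin surface, had 2099 CPM in Irx3/5dHet members and 2067 CPM in WT members and was the closest to equal. These genes chose the members, so their values are a description. With a minimum of 2 markers, which lets in cells with little Mbp, the median was -0.12. Of the cells let in, 15 of 19 Irx3/5dHet and 18 of 37 WT cells had at least 3 neuron markers.

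Myelin structural genes outside the rule differed little between the genotypes. Of 14 compact myelin and membrane protein genes with at least 10 UMIs, 9 stood higher and 5 lower in Irx3/5dHet members, 0 of them past 2-fold, and the median log2 ratio was 0.11. Among all 8100 genes with at least 10 UMIs, 46.9% stood higher and 53.1% lower, the median was -0.04, and 5.86% were past 2-fold higher and 14.3% past 2-fold lower. Mbp had a log2 ratio of 0.21 (0.12 to 0.29). Cnp, an enzyme of the myelin cytoplasm, had 5660 CPM in Irx3/5dHet and 5323 CPM in WT members, with an interval that spans 0 (-0.01 to 0.19). Tspan2, a tetraspanin of myelin, had the higher ratio of 0.54 (0.37 to 0.70), with 2448 CPM in Irx3/5dHet and 1688 CPM in WT members, and Ninj2 the highest, 0.59 (-0.40 to 1.5), from 16 and 29 UMIs. Pmp22, better known from peripheral myelin, had the lowest, -0.56 (-1.04 to -0.13). In all other cells of the same libraries the list's median was -0.80, with 1 of 14 genes higher in Irx3/5dHet. Those cells include the oligodendrocyte precursors, 44 of 1353 cells in Irx3/5dHet and 153 of 2128 in WT. How far this difference moves the ratios of lineage genes in all other cells was not tested. In precursors alone the list summed to 7076 CPM in Irx3/5dHet and 7388 CPM in WT cells. With a minimum of 2 markers the list's median in members was -0.32.

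Genes for contact with the axon stood on both sides. Of 14 measured, 7 stood higher and 7 lower in Irx3/5dHet members, with a median of -0.01, and 0 were past 2-fold. The highest was Lpar1, a lysophosphatidic acid receptor, with 1097 CPM in Irx3/5dHet members and 632 CPM in WT members, a log2 ratio of 0.80 (0.54 to 1.05), against -0.18 in all other cells. Rtn4, the growth inhibitor Nogo, had 1394 CPM in Irx3/5dHet and 1311 CPM in WT members. Sirt2, a tubulin deacetylase, had 832 CPM in Irx3/5dHet and 1036 CPM in WT members, a ratio of -0.31 (-0.58 to -0.06). The lowest, Nrcam, rested on 2 and 9 UMIs. With a minimum of 2 markers the list's median was -0.36.

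Enzymes of myelin lipid synthesis stood on both sides as well, with 7 of 13 genes higher, 6 lower and a median of 0.06, against -0.43 and 0 of 13 higher in all other cells. Scd2, a fatty acid desaturase, had 3418 CPM in Irx3/5dHet and 3750 CPM in WT members. Enpp2, the secreted enzyme autotaxin, had 3227 CPM in Irx3/5dHet and 3478 CPM in WT members, a ratio of -0.11 (-0.24 to 0.03). Ugt8a, which makes galactosylceramide, had 1214 and 1233 CPM in Irx3/5dHet and WT members. Fa2h, which hydroxylates the fatty acids of galactolipids, had 1012 CPM in Irx3/5dHet and 801 CPM in WT members, a ratio of 0.34 (0.08 to 0.59). The extremes were Scd1 at 0.42 (-0.37 to 1.14) and Elovl5, a fatty acid elongase, at -0.55 (-1.26 to 0.08). With a minimum of 2 markers the list's median was -0.39.

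Cholesterol synthesis and control genes leaned to the Irx3/5dHet side. Of 20 genes with at least 10 UMIs, 17 stood higher and 3 lower in Irx3/5dHet members, with a median of 0.34, and 4 were past 2-fold higher, which held for 5.86% of all genes at that depth. In all other cells 13 of the 20 were higher, with a median of 0.12. Among the 4 past 2-fold were Mvk, mevalonate kinase, and Sqle, squalene epoxidase, both named after their values were seen. Mvk had 12 UMIs or 63.6 CPM in Irx3/5dHet members and 13 UMIs or 25.5 CPM in WT members, a log2 ratio of 1.32 (0.06 to 2.57), against 0.33 in all other cells. Sqle had 19 UMIs or 101 CPM in Irx3/5dHet members and 23 UMIs or 45.1 CPM in WT members, a ratio of 1.16 (0.20 to 2.10), against -0.03 in all other cells. The genes with the most UMIs were closer to 0. Hmgcs1, an early enzyme of the pathway, had 498 CPM in Irx3/5dHet and 408 CPM in WT members, a ratio of 0.29 (-0.08 to 0.65), and Msmo1, a sterol demethylating oxidase, had 376 CPM in Irx3/5dHet and 234 CPM in WT members, a ratio of 0.69 (0.24 to 1.12). Cyp51 was at 0.32 (-0.29 to 0.88). The lowest was Ebp, a sterol isomerase, at -0.26 (-1.37 to 0.66). Most of these genes had under 100 UMIs in each library, so a single gene's difference was often not detectable at this depth.

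**Figure D2:**
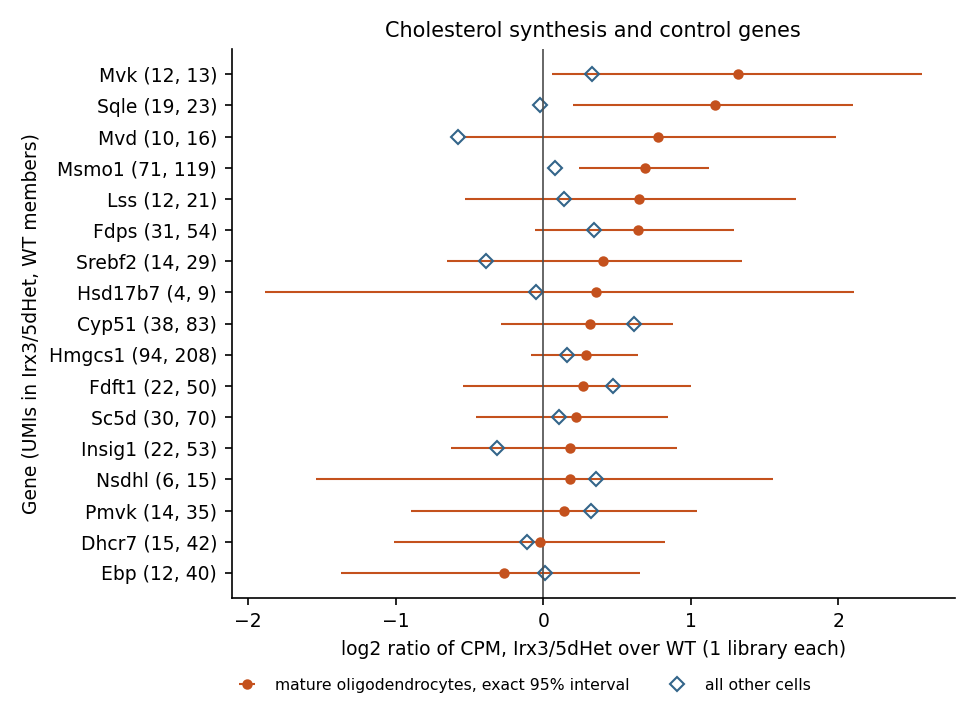
Log2 ratio of CPM in Irx3/5dHet over WT (horizontal axis) for 17 of the 20 cholesterol genes with at least 10 UMIs, with UMIs in Irx3/5dHet and WT members in brackets; points with lines are members with exact 95% intervals for counting error, diamonds all other cells. Mvk stands highest of those plotted at 1.32, 15 of the 17 points lie above 0, and 14 of the 17 lines cross it.

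Transcription factors of the lineage were close to equal with 1 exception. Of 13 genes, 9 stood higher and 4 lower, the median was 0.07, and 1 was past 2-fold lower, which held for 14.3% of all genes at that depth. In all other cells the list's median was -0.86, with 3 genes higher and 10 lower. With a minimum of 2 markers the median in members was -0.22. Olig1, a basic helix-loop-helix factor of the lineage, had 1198 CPM in Irx3/5dHet and 858 CPM in WT members, a ratio of 0.48 (0.24 to 0.72), against -1.40 in all other cells. In precursors alone the list summed to 7634 CPM in Irx3/5dHet and 5733 CPM in WT cells. Nkx6-2, a homeodomain factor of mature cells, had 419 CPM in Irx3/5dHet and 318 CPM in WT members, a ratio of 0.40 (-0.01 to 0.79), and Sox10, which drives myelin genes, had 355 and 302 CPM. The past 2-fold gene was Nkx2-2, a factor of the precursor to premyelinating stage. It had 5 UMIs in Irx3/5dHet and 35 in WT members, a ratio of -1.26 (-3.08 to -0.02). Its ratio in all other cells was -2.01 (-2.99 to -1.23).

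Glial connexins and potassium handling genes stood higher in Irx3/5dHet members in 7 of 8 cases, beside 46.9% of all genes at that depth in members. The list's median was 0.40 in members and -0.48 in all other cells. One of the list's genes, Gjb1, also served in the rule. Gjc3, a connexin of oligodendrocytes, had 986 CPM in Irx3/5dHet members and 557 CPM in WT members, a ratio of 0.82 (0.55 to 1.09). In precursors alone Gjc3 had 901 CPM in Irx3/5dHet and 491 CPM in WT cells. Kcna1, a voltage-gated potassium channel, had 254 CPM in Irx3/5dHet members and 128 CPM in WT members, just short of 2-fold at 1.0 (0.43 to 1.56). Gjb1, a connexin of myelin, was at 0.32 (0.01 to 0.63). Atp1b3, a subunit of the sodium pump, was at 0.20, and Atp1b1, mainly a neuronal subunit, was lowest at -0.04. With a minimum of 2 markers the list's median was -0.058.

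Genes for metabolite supply and iron handling were mixed, 7 higher and 7 lower of 14. Fth1, the heavy chain of ferritin, had 15124 CPM in Irx3/5dHet and 14317 CPM in WT members. Car2, a carbonic anhydrase, had 10228 CPM in Irx3/5dHet and 7986 CPM in WT members, a ratio of 0.36 (0.28 to 0.44). Cryab, a small heat shock protein, had 5273 and 5140 CPM. Ldha and Ldhb, subunits of lactate dehydrogenase, were the extremes and went opposite ways. Ldha had 15 UMIs in Irx3/5dHet and 11 in WT members, a ratio of 1.86 (0.66 to 3.15), and Ldhb had 26 UMIs in 23 Irx3/5dHet members and 179 UMIs in 97 WT members, a ratio of -1.33 (-2.0 to -0.75), against 0.02 in all other cells. Ldha, like Fth1, has pseudogene copies, so its count is uncertain. With the minimum of 2 markers Ldhb was at -0.48. Trf, transferrin, which oligodendrocytes secrete, had 3233 CPM in Irx3/5dHet and 4100 CPM in WT members, a ratio of -0.34 (-0.48 to -0.21).

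**Figure D3:**
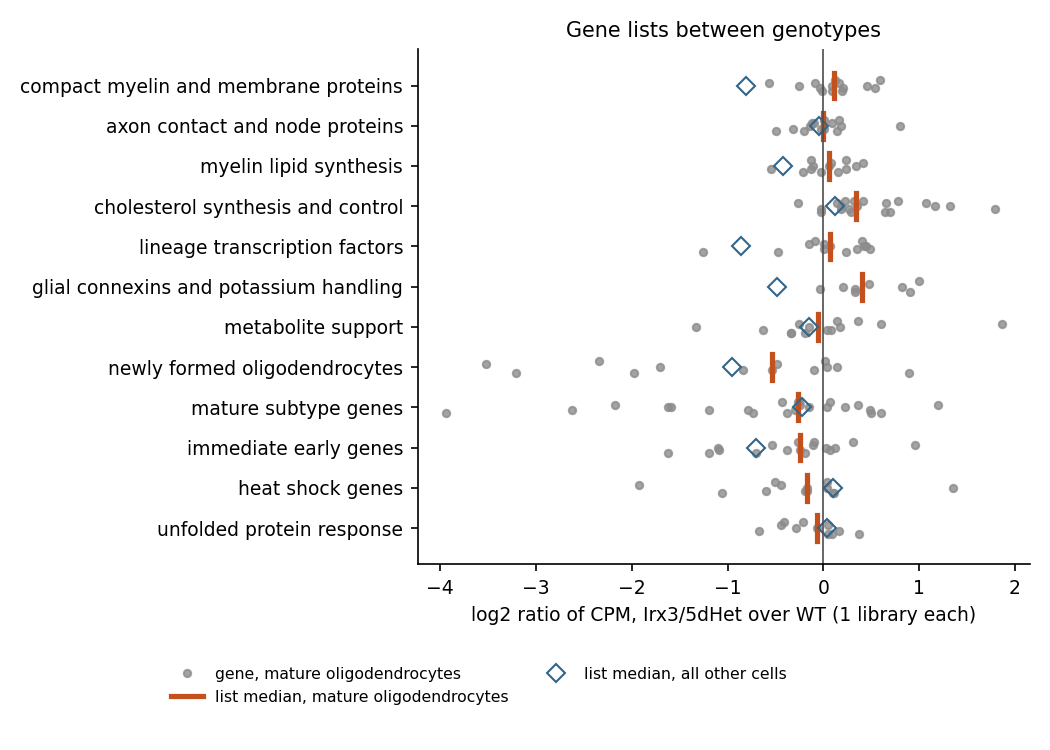
Log2 ratio of CPM in Irx3/5dHet over WT (horizontal axis) for the genes of 12 lists with at least 10 UMIs in members (grey points), with the list median in members (bars) and in all other cells (diamonds). Myelin lists have member medians near 0 (0.11 and 0.06) and cholesterol genes one of 0.34; the leftmost points include Klk6 at -3.94 and the genes Neu4 and Bmp4, with 0 UMIs in Irx3/5dHet members, whose plotted value depends on the 0.5 added to each sum.

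Genes of newly formed oligodendrocytes, the stage between precursor and myelinating cell, were mostly lower in Irx3/5dHet members. Of 13 measured, 4 stood higher and 9 lower, and the median was -0.54, also with the genes at 0 set to their bounds. In all other cells the list's median was -0.96, with 1 gene higher and 12 lower. Among all genes at that depth in members, 53.1% were lower and 14.3% past 2-fold lower. Bcas1, a marker of premyelinating and early myelinating cells, was equal, with 313 CPM in Irx3/5dHet and 310 CPM in WT members, and Nfasc, a cell adhesion protein, was at 0.14 (-0.27 to 0.53). Enpp6, a choline phosphodiesterase used to mark new oligodendrocytes, was at -0.10 (-0.80 to 0.53), and Mpzl1 at -0.48. Pak7, a kinase, was the highest at 0.89 (0.14 to 1.61). Fitted ratios were past 2-fold lower for 5 genes, named after their values were seen: Gpr17, Tns3 and Frmd4a, and the genes Neu4 and Bmp4, whose 0 UMIs in Irx3/5dHet members bound the fold below 2. Gpr17, a receptor of premyelinating cells, had 4 UMIs in 4 Irx3/5dHet members and 39 UMIs in 10 WT members, of which 18 lay in 1 cell. Neu4, a sialidase, had 0 UMIs in Irx3/5dHet and 15 in WT members, at least 1.85-fold lower against a floor of 3 counts in the library, and Bmp4, a growth factor, had 0 and 12, at least 1.48-fold lower.

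These genes lay in few cells. A UMI of Gpr17, Neu4 or Bmp4 was found in 4 of 131 Irx3/5dHet members and 11 of 277 WT members. The 11 WT cells had a median of 4 markers, against 7 in the other 266 WT members. Fyn, a kinase at the start of myelination, stood at 1760 CPM in the 11 and 35.5 CPM in the other WT members, and Vcan, a proteoglycan of precursors, at 928 and 4.18 CPM. Mbp was lower in them, with 6655 CPM in the 11 against 8175 CPM in the other WT members, and Car2 likewise, with 2048 against 8374 CPM. The 4 Irx3/5dHet cells had a median of 7 markers, as did the other 127 Irx3/5dHet members, with Mbp at 11512 CPM in the 4 and 9107 CPM in the 127. Fyn stood at 426 CPM in the 4 and 63.8 CPM in the 127, on 7 and 11 UMIs. Car2 stood at 5908 and 10639 CPM, and Vcan had 1 and 0 UMIs. With these cells left out of both libraries, a choice made once the data had been seen, the newly formed genes had a median of 0.31 over 9 genes. Since Gpr17, Neu4 and Bmp4 belong to the list and picked the cells left out, that value only describes where the lower counts lay. With a minimum of 4 markers it was -0.07.

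Several genes that mark subsets of mature oligodendrocytes differed between the genotypes by more than 2-fold. Klk6, a secreted serine protease, had 3 UMIs in 2 of 131 Irx3/5dHet members and 145 UMIs in 27 of 277 WT members, or 15.9 against 285 CPM, a log2 ratio of -3.94 (-6.46 to -2.59). The count of WT members was not carried by 1 cell, since at most 22 of the 145 UMIs lay in a single one. As a mean over cells of each cell's CPM, the Klk6 ratio was -2.44. Hopx, a small homeodomain protein without DNA binding, had 2 UMIs in 2 Irx3/5dHet members and 41 UMIs in 25 WT members, a ratio of -2.62 (-6.02 to -0.98). S100b, a calcium-binding protein, had 46 UMIs in 20 Irx3/5dHet members and 568 UMIs in 101 WT members, or 244 against 1115 CPM, a ratio of -2.18 (-2.66 to -1.76). Anxa5, an annexin, was at -1.60 (-2.85 to -0.66), with 9 and 77 UMIs, and at -0.56 with a minimum of 2 markers. On the other side Ptgds had 17933 CPM in Irx3/5dHet and 11819 CPM in WT members, a ratio of 0.60 (0.54 to 0.66), and Nkain1, which interacts with the sodium pump, was the highest at 1.19 (0.13 to 2.22) on 16 and 19 UMIs. Of the 23 subset genes measured, 8 stood higher and 15 lower, with a median of -0.26 and 6 past 2-fold lower, where all genes at that depth had 14.3%; the list's median in all other cells was -0.22.

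Part of these differences was also seen outside the members. In all other cells S100b was at -1.20, with 263 UMIs in Irx3/5dHet and 852 in WT cells, while Klk6 had 1 and 3 UMIs there and Hopx was at -0.14. Ptgds was at 1.01 (0.84 to 1.18) there, with 255 CPM in Irx3/5dHet and 127 CPM in WT cells. In precursors, where S100b is plentiful, its level was 1480 CPM in Irx3/5dHet and 1363 CPM in WT cells, a ratio of 0.13 (-0.28 to 0.50). In neuron marker cells, which should lack it, S100b had 12 UMIs in Irx3/5dHet and 52 in WT cells, or 6.03 and 24.3 CPM. This is a far lower level than in the members of either library.

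Because the members of the WT library were deeper, shares of cells with a UMI were also taken after thinning each cell to 600 UMIs, which kept 108 of 131 Irx3/5dHet and 240 of 277 WT members. S100b was then found in 7.41% (3.25 to 14.1) of Irx3/5dHet and 25.8% (20.4 to 31.9) of WT members, against 0.483% of Irx3/5dHet and 1.81% of WT neuron marker cells thinned alike. Without thinning it was 15.3% and 36.5% of members. Klk6 was found in 0% (0 to 3.36) of Irx3/5dHet members and in 6.25% (3.54 to 10.1) of WT members, against 0% of the neuron marker cells of both libraries. Ptgds was found in 93.5% (87.1 to 97.4) of Irx3/5dHet and 76.7% (70.8 to 81.9) of WT members, against 5.80% and 4.02% of Irx3/5dHet and WT neuron marker cells, where the median depth before thinning was 1895 and 1770 UMIs. Opalin was found in 46.3% (36.7 to 56.2) of Irx3/5dHet and 35.8% (29.8 to 42.3) of WT members, with overlapping intervals. Hopx was found in 0% of Irx3/5dHet and 3.33% of WT members, but in 2.42% and 3.24% of neuron marker cells. Its share alone therefore does not set WT members apart from neuron marker cells. Before thinning, 25 WT members had a Hopx UMI, 27 a Klk6 UMI and 38 either, so some held both.

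Thinning draws UMIs at random, and a second draw from the same cells gave somewhat other shares. In it S100b was found in 8.33% of Irx3/5dHet and 27.5% of WT members, Klk6 in 0% and 7.92%, and Ptgds in 95.4% and 77.9%. Ptgds in neuron marker cells then stood at 4.67% in Irx3/5dHet and 5.05% in WT, the other order than in the first draw, so no order is read there.

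**Figure D4:**
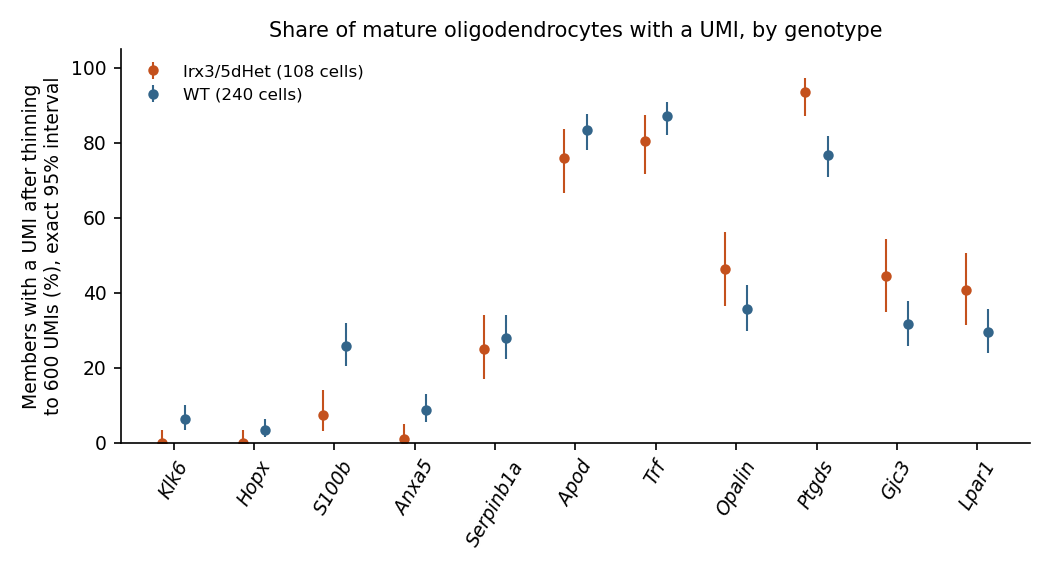
Share of members with at least 1 UMI of each gene after thinning every cell to 600 UMIs (vertical axis, percent, first random draw) in 108 Irx3/5dHet and 240 WT members, with exact 95% intervals for counting error. S100b stands at 7.41% in Irx3/5dHet and 25.8% in WT members and Ptgds at 93.5% and 76.7%, while the intervals of Apod, Trf, Serpinb1a and Opalin overlap.

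Within the WT library several of the subset genes went together. Members with a UMI of Klk6 or Hopx were 4 of 131 (3.05%, 0.838 to 7.63) in the Irx3/5dHet library and 38 of 277 (13.7%, 9.89 to 18.3) in the WT library. In WT, S100b stood at 3416 CPM in the 38 members with such a UMI and at 653 CPM in the 239 without, a log2 ratio of 2.39 (2.15 to 2.63). Apod, an apolipoprotein of oligodendrocytes, stood at 9837 CPM with and 3787 CPM without, a ratio of 1.38. Mgst3, a glutathione transferase, was at 2.98 (2.0 to 4.03), Anxa5 at 2.28 and Cd59a, a complement inhibitor, at 2.07. Ptgds was the reverse, with 4331 CPM in the members with and 13322 CPM in those without, a ratio of -1.62 (-1.78 to -1.47), and so was Opalin, with 329 and 983 CPM, a ratio of -1.56 (-2.19 to -1.03). Il33, an alarmin cytokine, had 1 UMI in the 38 and 62 UMIs in the 239. Of 2789 genes with at least 30 UMIs in WT members, 6.06% were at least 2-fold higher and 9.93% at least 2-fold lower in the members with a Klk6 or Hopx UMI. The general myelin genes differed little, with Mag at 0.24, Mobp at 0.02, Cldn11 at 0.12 and Mbp at 0.26, and both sets had a median of 7 markers.

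The 38 cells were deeper, with a median of 1896.5 UMIs against 1305 in the 239, and a deeper cell is more likely to show a UMI of any gene. After thinning to 600 UMIs, S100b was found in 61.8% (43.6 to 77.8) of 34 WT members with a Klk6 or Hopx UMI and 19.9% (14.7 to 26.0) of 206 without. Ptgds was found in 26.5% (12.9 to 44.4) of the members with and 84.95% (79.3 to 89.5) of those without. Apod was found in 100% (89.7 to 100) of the members with and 80.6% (74.5 to 85.8) of those without. Opalin was found in 14.7% (4.95 to 31.1) and 39.3% (32.6 to 46.3). Intervals overlapped for Anxa5, at 17.6% (6.76 to 34.5) and 7.28% (4.13 to 11.7). They also did for Il33, at 0% (0 to 10.3) and 9.22% (5.64 to 14.0). Serpinb1a was found in 29.4% and 27.7%. Mag, a general marker, was found in 91.2% and 89.3%. The 4 Irx3/5dHet members with a Klk6 or Hopx UMI had 7 S100b UMIs and 4 Ptgds UMIs in all, a log2 ratio of 2.15 (0.66 to 3.25) and of -5.01 (-7.05 to -3.82) against the other 127. General myelin genes were lower in these 4 as well, with Mbp at 3100 CPM in the 4 against 9582 CPM in the 127, so the split in this library differs from that in WT and rests on few cells. Splitting WT by Klk6 alone, likewise chosen once the data had been seen, gave 27 cells and a Ptgds ratio of -3.01.

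**Figure D5:**
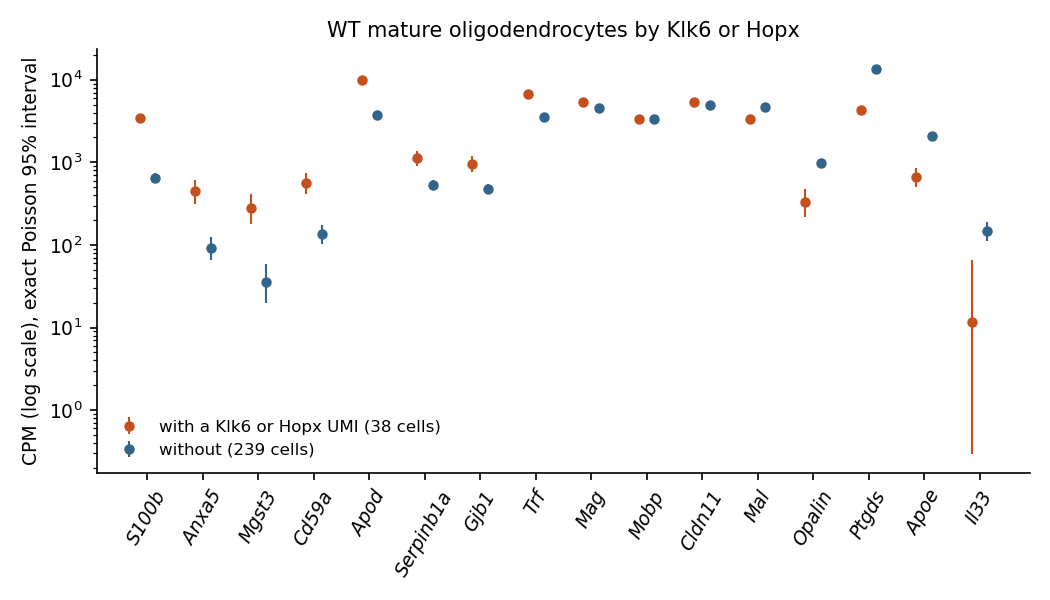
Level in CPM (vertical axis, log scale) of subset and general myelin genes in WT members with a Klk6 or Hopx UMI (38 cells) and without (239 cells), with exact Poisson 95% intervals for counting error. S100b is higher with (3416 against 653 CPM), Ptgds, Opalin and Il33 are lower, and Mag, Mobp and Cldn11 lie close together.

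With the Klk6 or Hopx members left out of both libraries, S100b remained lower in the Irx3/5dHet library, with 216 CPM in 127 Irx3/5dHet members against 653 CPM in 239 WT members, a ratio of -1.58 (-2.12 to -1.11). Ptgds was then at 0.49 (0.43 to 0.55) and Opalin at 0.38 (0.14 to 0.61). Apod, at -0.26 (-0.38 to -0.14) over all members, was at 0.10 (-0.02 to 0.23) without them, and Trf moved to -0.11 (-0.25 to 0.03). Ldhb was still at -1.08 (-1.80 to -0.46).

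Windows of 250 bases before to 50 bases after the start of 4 of these genes are shown because Klk6 and S100b went together in WT members while Ptgds and Opalin went the other way. The sequences are RefSeq promoter windows of GRCm38.p6, written 5′ to 3′ on the strand of the gene: Klk6 at chr7:43824294-43824593 (plus strand), S100b at chr10:76253586-76253885 (plus strand), Ptgds at chr2:25469700-25469999 (minus strand) and Opalin at chr19:41077064-41077363 (minus strand). Capitals mark matches on either strand to ACAAAG, a core motif of Sox factors such as Sox10, and to CTGGNAC, a core motif of the myelin factor Myrf.
Klk6: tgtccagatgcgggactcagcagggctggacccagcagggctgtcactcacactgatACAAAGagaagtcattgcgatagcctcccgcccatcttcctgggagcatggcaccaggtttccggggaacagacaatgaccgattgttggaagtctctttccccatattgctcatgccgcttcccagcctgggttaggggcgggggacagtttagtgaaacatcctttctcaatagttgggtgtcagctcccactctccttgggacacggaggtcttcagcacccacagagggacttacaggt
S100b: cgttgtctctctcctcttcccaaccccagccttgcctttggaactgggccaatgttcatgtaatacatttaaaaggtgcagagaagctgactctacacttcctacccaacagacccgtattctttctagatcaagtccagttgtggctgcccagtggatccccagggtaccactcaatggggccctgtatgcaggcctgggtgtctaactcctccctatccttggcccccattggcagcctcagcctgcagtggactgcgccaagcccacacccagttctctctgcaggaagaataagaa
Ptgds: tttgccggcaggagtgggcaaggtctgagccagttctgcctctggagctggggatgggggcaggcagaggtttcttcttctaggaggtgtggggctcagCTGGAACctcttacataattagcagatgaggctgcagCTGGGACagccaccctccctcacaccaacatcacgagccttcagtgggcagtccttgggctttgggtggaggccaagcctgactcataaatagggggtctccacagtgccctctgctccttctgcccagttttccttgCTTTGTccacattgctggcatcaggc
Opalin: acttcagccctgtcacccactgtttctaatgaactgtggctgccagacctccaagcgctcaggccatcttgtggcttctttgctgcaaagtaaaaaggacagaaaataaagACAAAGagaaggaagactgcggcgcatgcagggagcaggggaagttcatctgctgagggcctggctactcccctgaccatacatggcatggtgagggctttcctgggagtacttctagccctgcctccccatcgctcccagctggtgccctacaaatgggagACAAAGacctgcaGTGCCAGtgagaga
The Klk6 window held 1 match to the Sox motif, the Ptgds window held 1 Sox and 2 Myrf matches, the Opalin window held 2 Sox matches and 1 Myrf match, and the S100b window held 0. Marks of matches that overlap would merge, and the last motif searched, TATAAA, had 0 matches in the 4 windows. Over all 32851 RefSeq promoter windows of this length, 18.7% held the Sox motif, 19.3% the Myrf motif and 13.6% TATAAA.

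Across all genes, more were past 2-fold lower than higher in Irx3/5dHet members. Of 4017 genes with at least 30 UMIs, 86 (2.14%) were at least 2-fold higher and 331 (8.24%) at least 2-fold lower. The higher count was 280 with a minimum of 2 markers and 152 with the mean over cells, beside 379 and 384 lower. Without pseudogenes, mitochondrially encoded and ribosomal protein genes it was 78 (2.14%) and 189 (5.19%) of 3644. Among the 12 genes picked as higher were Mgp, Dcn, Oxt, Gstp1, Atp5g1, Atp5l, Eef1a1, Avp, Lpgat1, Rundc3a and Traf6, and 11 of the 12 were also higher in all other Irx3/5dHet cells. The share of all genes past 2-fold that did so is not given here. Gstp1, a glutathione transferase with a near-identical neighbour gene, had 434 UMIs in 96 Irx3/5dHet members and 454 UMIs in 169 WT members, or 2300 against 891 CPM, a ratio of 1.37 (1.17 to 1.56), and its ratio in all other cells was 1.14. Eef1a1, a translation elongation factor, Atp5g1 and Atp5l, subunits of ATP synthase, have processed pseudogene copies, and their ratios of 1.27, 2.06 and 2.03 stood beside 1.44, 2.43 and 2.06 in all other cells. Lpgat1, an enzyme of phospholipid remodelling, had 244 CPM in Irx3/5dHet and 92.2 CPM in WT members, a ratio of 1.40 (0.78 to 2.02), against 0.64 in all other cells.

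Several of these genes belong to other cells. Oxt and Avp, the neuropeptides oxytocin and vasopressin, had 23 and 33 UMIs in Irx3/5dHet members and 11 and 30 in WT members, and Oxt stood at 1621 CPM in all other Irx3/5dHet cells and 148 CPM in all other WT cells. Of the 28 Mgp UMIs in Irx3/5dHet members 24 lay in 1 cell, and of the 68 Dcn UMIs 43 did; both are genes of fibroblasts, whose summed markers are given above. Without members that carried markers of another cell type, 66 genes were past 2-fold higher and 231 lower. Chga was then at -0.61 and Cga at -0.82. The ratio of Dcn turned to -1.77, but Dcn is itself among the fibroblast markers that picked cells left out. That value therefore only describes where its UMIs lay.

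The 12 genes named as lower were Gm26772, Klk6, Chga, Cga, AC159139.1, Apoc3, S100b, Tulp3, CT868733.2, Gpatch1, 6330403K07Rik and AC159815.1, and all 12 were also lower in all other Irx3/5dHet cells, 8 of them with an interval there that leaves out 0. Cga was at only -0.04 and Chga at -0.20 there. For these 12 as well, the share of all genes past 2-fold that went the same way is not given here. All 67 UMIs of Gm26772 lay in 1 WT member, as did 153 of 269 for Chga, a granule protein of neuroendocrine cells, 96 of 170 for Cga, the shared subunit of pituitary hormones, 42 of 55 for Apoc3 and 95 of 249 for 6330403K07Rik. Among the 12, Klk6 and S100b are known from oligodendrocytes. Gpatch1, which encodes a protein with a G-patch domain, had 0 UMIs in Irx3/5dHet and 32 UMIs in 22 WT members, at least 3.95-fold lower against the floor of 3 counts.

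Immediate early genes, which respond within minutes to stimulation and to tissue dissociation, leaned to the lower side in Irx3/5dHet members, where 53.1% of all genes at that depth were lower. Of 17 measured, 5 stood higher and 12 lower, with a median of -0.24, against -0.70 and 16 of 17 lower in all other cells. Fos had 1500 CPM in Irx3/5dHet and 2451 CPM in WT members, a ratio of -0.71 (-0.90 to -0.52), Jun was at -1.10 (-1.38 to -0.83) and Egr1 at -1.20 (-1.66 to -0.78). Jund was at 0.31, and the highest was Atf3 at 0.96 (0.15 to 1.73), for which 18 of 25 Irx3/5dHet UMIs lay in 1 cell and which was at -0.20 without the cell with the most UMIs. Heat shock genes had 5 higher and 8 lower of 13, with a median of -0.18, against 0.10 and 9 of 13 higher in all other cells. Hsp90ab1 and Hsp90aa1, the abundant cytosolic chaperones, were at -0.20 and 0.11. The inducible Hspa1a was at -1.06 (-1.35 to -0.78), against -0.83 in all other cells. Dnajb1, a cochaperone, was lowest at -1.92 (-2.57 to -1.37), against -0.79 in all other cells. Hspa8, a constitutive chaperone gene with pseudogene copies, was highest at 1.35 on 16 and 17 UMIs, against 1.27 in all other cells. Genes of the unfolded protein response had 5 higher and 6 lower of 11, with a median of -0.07, from Ddit3 at -0.67 (-1.67 to 0.14) to Dnajc3 at 0.37 (-0.21 to 0.92).

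Interferon and antigen presentation genes were sparse, with 7 of 17 reaching 10 UMIs, 2 higher and 5 lower, and a median of -0.68. Of the 7, 3 were past 2-fold lower and 1 past 2-fold higher. Among all genes at that depth 53.1% were lower, 14.3% past 2-fold lower and 5.86% past 2-fold higher. Ifi27, an interferon-inducible membrane protein, had 27 UMIs in 20 Irx3/5dHet members and 161 UMIs in 92 WT members, a ratio of -1.12 (-1.79 to -0.55). Serpina3n, a secreted protease inhibitor of reactive glia, had 4 UMIs in 3 Irx3/5dHet members and 41 UMIs in 25 WT members, a ratio of -1.77 (-3.87 to -0.46), and stood at 1.5 in all other cells; with a minimum of 2 markers it turned to 0.45. B2m, the shared light chain of class I molecules, was at 0.68 (-0.21 to 1.51), H2-D1 at -0.33, and Ifitm3, on 8 and 3 UMIs, at 2.71 (0.79 to 5.40).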

How the data were processed

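Whole-number UMI counts per gene and cell barcode were deposited by the authors in 1 table per library. Per the submitters' processing notes, bcl2fastq, Picard, STAR 2.6.0b, Seurat 3 and the build mm10 were used; which annotation was counted, and how reads with several matches were treated, is not stated there. The authors also deposited 1 table of both libraries on a natural log scale, ln(1 + UMIs per 10000), checked on 1000 of its genes, where 99.954% of nonzero values fitted within 0.01; its barcodes gave another choice of cells. Barcodes were used when they had 300 genes or more and no more than 20% of UMIs from mitochondrial genes, which left out 316 of 1800 Irx3/5dHet and 395 of 2800 WT barcodes. Doublets were not removed; Scrublet (scanpy 1.11.5) marked 17 of 3889 cells (0.437%), under its expected 5%, and leaving them out was an alternative. UMIs of members were summed per library, and levels are CPM of member UMIs. Log2 ratios are Irx3/5dHet over WT with 0.5 added to each sum, with exact conditional binomial 95% intervals; levels have exact Poisson and shares exact Clopper-Pearson intervals (scipy 1.17.1). PCR copies were collapsed by UMI, and all intervals cover counting error only. A gene was counted past the fold at 2-fold with at least 30 UMIs over both libraries, or 10 UMIs within a list. Gene biotypes and loci are from GENCODE M21 (GRCm38), matched by symbol. Levels of different genes were not compared, since UMIs are counted per transcript end and not scaled.

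Genes were named by rule: the 20 genes outside the markers with the largest CPM in members over the rest, by the lower of the 2 libraries' ratios; the 12 higher and 12 lower between genotypes whose interval lay farthest from 0, leaving out pseudogenes, mitochondrial and ribosomal protein genes; the markers; and in each list the 2 to 4 genes with the most UMIs and the highest and lowest ratio. The 20 needed 50 UMIs, and 1 CPM was added to both levels of their ratio. Other genes were chosen after their values were seen, and some genes the rule picks are counted in the totals but not reported here. The members, lists and tests were chosen with earlier results of these data known. Ratios and intervals were tested on simulated counts, which held no variation between cells. Thinning was run on real members, where only the total left in each cell was checked.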

Additional observations from a re-analysis of the deposited data

Results flagged for a closer look

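The genes below had a ratio between Irx3/5dHet and WT of at least 2-fold in 1 direction in mature oligodendrocytes and of at least 2-fold in the other direction in another cell set of the same libraries. With 1 library per genotype the difference between the cell sets was not tested.

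Jun, an immediate early transcription factor, had a log2 ratio of -1.10 in mature oligodendrocytes, with 128 UMIs in Irx3/5dHet and 742 in WT members, and of 1.07 in oligodendrocyte precursors, with 50 UMIs in Irx3/5dHet and 127 in WT cells. Serpina3n was at -1.77 in mature oligodendrocytes, or 0.45 with a minimum of 2 markers, at 1.85 in precursors, with 8 UMIs in Irx3/5dHet and 12 in WT cells, and at 1.53 in neuron marker cells, with 256 UMIs in Irx3/5dHet and 95 in WT cells. Dcn was at 3.40 in mature oligodendrocytes and at -1.70 in neuron marker cells, and 43 of its 68 UMIs in Irx3/5dHet members lay in 1 cell. Agrp, a neuropeptide of arcuate neurons, was at -2.65 in mature oligodendrocytes, with 2 UMIs in Irx3/5dHet and 42 in WT members, 38 of them in 1 cell, and at 2.27 in neuron marker cells, with 1348 UMIs in Irx3/5dHet and 299 in WT cells. Npy, made by the same neurons, was at -1.53 in mature oligodendrocytes, with 7 UMIs in Irx3/5dHet and 58 in WT members, 50 of them in 1 cell, and at 2.45 in neuron marker cells, with 3979 UMIs in Irx3/5dHet and 781 in WT cells.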

How the results depend on the processing

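Depth limits most single genes, as their intervals show. No paired analysis was possible because each genotype was 1 pooled library, and for the same reason no replicate could be left out. The ratio of member shares lay between 0.750 and 0.930 over 9 alternatives. A minimum of 2 markers gave medians of -0.12 for the rule markers, -0.32 for compact myelin, -0.36 for axon contact and -0.39 for myelin lipid synthesis. It gave -0.22 for lineage transcription factors, -0.058 for connexins and potassium handling, and 280 genes past 2-fold higher. Of the cells it let in, 15 of 19 Irx3/5dHet and 18 of 37 WT cells had at least 3 neuron markers. The cause of the shifts was not tested. The newly formed list was at 0.31 without members with a Gpr17, Neu4 or Bmp4 UMI. Genes past 2-fold higher were 152 with the mean over cells. With at least 10 UMIs 475 were higher and 1162 lower, and with at least 100 UMIs 6 and 49, since other numbers of genes were then counted. The Ptgds ratio within WT was -3.01 with the split by Klk6 alone. The other 249 values of shares, counts, list medians and splits stayed within the counting interval, the order-statistic 95% interval of the median, or 1.5 times of the main count. Of 1775 recomputed gene ratios 88 moved out of their counting interval, 49 of them at a minimum of 2 markers (24 to the other sign) and 39 elsewhere (5 to the other sign). Ratios that were past 2-fold turned to the other sign in 10 cases. Dcn did so (-1.77) without members with markers of another type, where Dcn is itself among the markers that picked them. At 2 markers 6330403K07Rik (0.34) and Serpina3n (0.45) did so. Agrp turned at 2 markers (0.89), 4 markers (0.52) and in the merged table's barcodes (0.50). Npy turned in the same 3 (2.88, 0.98 and 1.79) and without the cell with the most of its UMIs (0.77). The cause of these was not tested.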
